A study of Homo sapiens with 6 samples.

Results

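The genes of respiratory complex I were followed in cells treated with an siRNA against CPT2 and in cells treated with a negative control siRNA. They were taken from the deposited gene table as every gene whose name starts with MT-ND or NDUF, which gave 55 of 24154 genes. Of these, 7 are subunits encoded by mitochondrial DNA, 37 are subunits encoded in the nucleus and 8 are NDUFAF assembly factors. The other 3 carry an NDUF name without being complex I subunits, and are described last. After the filter on low counts, 53 of the 55 genes were tested, among 15302 genes in all.

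Poly(A) RNA-seq was made from cells labelled HCT116, a human colorectal carcinoma line, 48 h after the siRNA treatment began. The siCPT2 group had 3 libraries and the NC group 3, numbered 1 to 3 in the labels. CPT2 encodes carnitine palmitoyltransferase 2, the enzyme of the inner mitochondrial membrane that hands long-chain fatty acids to beta-oxidation. Whether the libraries of a group came from separate cultures is not given, so each p-value measures the spread between these libraries, which may be technical.

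Complex I (NADH:ubiquinone oxidoreductase) takes electrons from NADH in the mitochondrial matrix, passes them along iron-sulfur clusters to ubiquinone, and pumps protons across the inner membrane. Its L-shaped body has a matrix arm, where the electrons travel, and a membrane arm, which holds the pumps. The proton-pumping core is encoded by mitochondrial DNA and the rest by the nucleus, so that assembly draws on transcripts of both genomes and on dedicated assembly factors.

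The 6 libraries held 28353790 to 29449380 counts. CPT2, the targeted gene, had 492, 597 and 553 counts in siCPT2 libraries 1, 2 and 3, against 709, 881 and 911 counts in NC libraries 1, 2 and 3. Every siCPT2 library was below every NC library, with a log2 fold change of -0.44 (SE 0.17), and this did not reach the threshold of 0.05 once adjusted over all genes (adjusted p = 0.338, edgeR quasi-likelihood test). With offsets for transcript GC content and length, it was 0.02 (SE 0.20). siCPT2 library 1 stood apart on the first principal component of all genes (53.2% of the variance), with a score of 76.6 against -44.6 to 16.03 in the others. The cell label was set against 10 markers of colonic epithelium. KRT8 and KRT18, keratins of simple epithelia, were abundant, at 609 to 1432 CPM (read counts scaled to a common library size). The epithelial adhesion genes EPCAM and CDH1 had only 2.68 to 4.31 CPM and 1.03 to 2.90 CPM over the 6 libraries. The intestinal transcription factor genes CDX1 and CDX2 had no count in any library, CDH17, VIL1 and KRT20 stayed under 0.2 CPM, and LGALS4 had 0.292 to 1.03 CPM. Among markers of other cells, CDH5, the cadherin of endothelium, had 52.1 to 68.6 CPM in siCPT2 libraries and 71.3 to 87.8 CPM in NC libraries, while PECAM1 and VWF stayed under 1.2 CPM. All of the epithelial markers but KRT8 and KRT18 were thus near or at 0, which goes against the label, and the cells are called here by their label only.

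The mitochondrially encoded subunits were higher in siCPT2 libraries 1 and 2 but not in siCPT2 library 3. Their median log2 difference from the NC mean was 1.04 in siCPT2 library 1, 0.69 in siCPT2 library 2 and -0.05 in siCPT2 library 3. In NC libraries 1, 2 and 3 the same median was 0.01, -0.03 and 0.02. The median was thus nearly even among the NC libraries and spread widely among the siCPT2 libraries, though single genes such as MT-ND4L varied among the NC libraries as well. Their share of all counts was 6.63%, 5.999% and 3.26% in siCPT2 libraries 1, 2 and 3, against 3.78%, 4.10% and 3.76% in NC libraries 1, 2 and 3. In RNA from a whole culture, fewer cells of a type and less RNA per cell cannot be told apart.

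**Figure D1:**
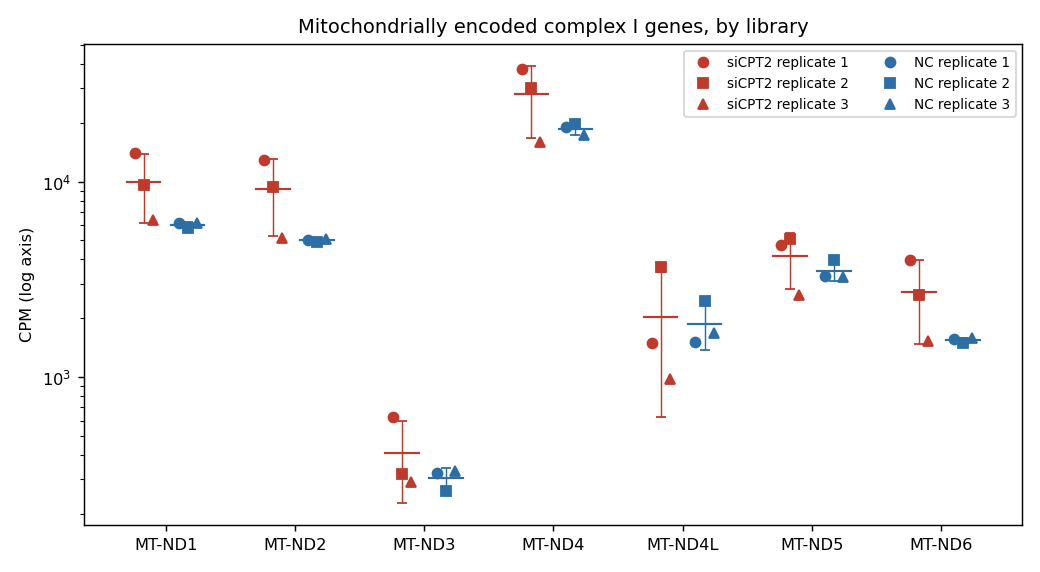
CPM (log axis) of the 7 mitochondrially encoded complex I genes in each library, siCPT2 in red and NC in blue; the symbol gives the replicate, and the bar and whiskers the mean and SD (n = 3). For MT-ND1, MT-ND2, MT-ND4 and MT-ND6, siCPT2 libraries 1 and 2 lie above all NC libraries, and siCPT2 library 3 lies at or near the NC values.

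All 7 genes had a positive fitted log2 fold change, 0.12 to 0.86 with a median of 0.58, where 50.7% of all genes tested were above 0 and their median was 0.01. The 7 mitochondrial genes come from long shared transcripts, MT-ND6 from the other strand, and are no replicates of each other. The counts out of 7 below are thus not separate agreements. None of the 7 passed over all genes, where 0.0131% of genes did (edgeR, smallest adjusted p of the 7 = 0.338). Without a correction, 3 of the 7 had a p under 0.05 and were higher, against 9.18% of all genes tested. For 2 of the 7 the groups did not overlap and siCPT2 was higher, which held for 12.2% of all genes tested. In the authors' deposited table, 3 of the 7 (MT-ND1, MT-ND2 and MT-ND6) were called up, as were 2.77% of the genes with a p-value there. Leaving out siCPT2 library 1 brought the median of the 7 down to 0.30, and with offsets for transcript GC content and length as well it was 0.18.

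MT-ND1 and MT-ND2 lie near each other on the heavy strand's transcript, at chrM:3307-4262 and chrM:4470-5511 (GRCh38). MT-ND1, the subunit that frames the entrance for ubiquinone, had 13979.9, 9568 and 6324 CPM in siCPT2 libraries 1, 2 and 3, against 6139.9, 5794 and 6123 CPM in NC libraries 1, 2 and 3. All siCPT2 values were above all NC values, but siCPT2 library 3 by a small margin. The log2 fold change of MT-ND1 was 0.73 (SE 0.26; adjusted p = 0.338 by edgeR), and 0.39 without siCPT2 library 1. MT-ND2, an antiporter-like proton pump, had 12886, 9371 and 5132 CPM in siCPT2 libraries 1, 2 and 3, against 5051, 4911 and 5082 CPM in NC libraries 1, 2 and 3. The groups did not overlap here either, and again siCPT2 library 3 was close to the controls. The log2 fold change of MT-ND2 was 0.86 (SE 0.29; adjusted p = 0.338 by edgeR), the highest of the 7, and 0.52 without siCPT2 library 1.

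MT-ND4 and MT-ND5 encode the other antiporter-like pumps, further out on the membrane arm. MT-ND4 (chrM:10760-12137) had 37854, 30022 and 15852 CPM in siCPT2 libraries 1, 2 and 3, against 18937, 19770.5 and 17256 CPM in NC libraries 1, 2 and 3. siCPT2 library 3 was the lowest of all 6, so the groups overlapped, and the log2 fold change was 0.58 (SE 0.28; adjusted p = 0.339 by edgeR). MT-ND5 (chrM:12337-14148) had 4716, 5093 and 2636 CPM in siCPT2 libraries 1, 2 and 3, against 3275, 3978 and 3264 CPM in NC libraries 1, 2 and 3. Here too siCPT2 libraries 1 and 2 were the highest and siCPT2 library 3 the lowest, with a log2 fold change of 0.24 (SE 0.24; adjusted p = 0.561 by edgeR).

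MT-ND6 is the only complex I gene transcribed from the light strand of mitochondrial DNA (chrM:14149-14673, minus strand), and its messenger is known to carry little or no poly(A) tail. It had 3995, 2634 and 1525 CPM in siCPT2 libraries 1, 2 and 3, against 1559, 1490.3 and 1584 CPM in NC libraries 1, 2 and 3. The gene followed the heavy-strand genes across the libraries: siCPT2 libraries 1 and 2 were high, and siCPT2 library 3 lay within the NC range. Its log2 fold change was 0.82 (SE 0.29; adjusted p = 0.338 by edgeR). The library protocol names no strand marking, so reads of MT-ND6 and of heavy-strand RNA that crosses it cannot be told apart.

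The short genes MT-ND3 and MT-ND4L, both for small subunits at the joint of the arms, followed the other genes less closely. MT-ND3 (chrM:10059-10404) had 624, 319 and 292 CPM in siCPT2 libraries 1, 2 and 3, against 324, 260.4 and 330.2 CPM in NC libraries 1, 2 and 3. Only siCPT2 library 1 was above the NC range, and the log2 fold change of 0.43 (SE 0.28; adjusted p = 0.397 by edgeR) was -0.01 without that library.

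MT-ND4L and MT-ND4 sit on a shared messenger RNA and overlap by 7 bases, shown here because the counts of the pair were split differently from library to library. The stretch is chrM:10730-10796 on the plus strand of GRCh38, and the capitals mark the bases read in both genes, which begin with the first codon of MT-ND4.
MT-ND4L/MT-ND4 junction: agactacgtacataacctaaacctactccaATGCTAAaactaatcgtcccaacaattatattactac
MT-ND4L (chrM:10470-10766) had 1493, 3648 and 983 CPM in siCPT2 libraries 1, 2 and 3, against 1509.7, 2445 and 1674 CPM in NC libraries 1, 2 and 3. Library 2 was the highest of each group, and siCPT2 library 3 was the lowest of all. The ratio of MT-ND4L to MT-ND4 CPM was 0.0394, 0.122 and 0.0620 in siCPT2 libraries 1, 2 and 3, against 0.0797, 0.124 and 0.0970 in NC libraries 1, 2 and 3. The ratio averaged 0.0743 ± 0.0424 in siCPT2 libraries and 0.1001 ± 0.0221 in NC libraries (SD, n = 3 each), and its range within each group was wider than the difference between these means. The log2 fold change of MT-ND4L was 0.12 (SE 0.42; adjusted p = 0.877 by edgeR), and its sign turned under 9 of the 21 alternatives tried.

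On the scale of the authors' deposited FPKM, which is per length, MT-ND4 had the highest level, at 18052 ± 6237 FPKM in siCPT2 libraries and 13381 ± 936 FPKM in NC libraries (SD, n = 3 each). MT-ND3 had the lowest, at 1053 ± 377 FPKM in siCPT2 libraries and 870.1 ± 104 FPKM in NC libraries. MT-ND1, MT-ND2 and MT-ND4L lay between, at 9265 ± 2881, 7789.8 ± 2818 and 6296 ± 4617 FPKM in siCPT2 libraries and 6222 ± 164, 4757 ± 99.9 and 6259 ± 1754 FPKM in NC libraries. Within each library MT-ND1 was above MT-ND2, but the place of MT-ND4L was not resolved. MT-ND4L was below both in siCPT2 libraries 1 and 3 and above both in siCPT2 library 2. In the NC libraries it was above MT-ND2 throughout, and above MT-ND1 in NC library 2 only. MT-ND6 followed at 4590.1 ± 1757 FPKM in siCPT2 libraries and 2908 ± 92.1 FPKM in NC libraries, and MT-ND5 at 2061 ± 639 FPKM in siCPT2 libraries and 1914 ± 248 FPKM in NC libraries. The annotation lists 22 to 38 pseudogenes for each of the 7 genes, copies in nuclear DNA, and how the authors' counting placed reads that fit several places is not given.

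The other 6 protein genes of mitochondrial DNA, for subunits of complexes III, IV and V, had the same profile over the libraries. Their median log2 difference from the NC mean was 1.03, 0.74 and -0.05 in siCPT2 libraries 1, 2 and 3, against 0.06, -0.01 and -0.03 in NC libraries 1, 2 and 3. The summed CPM of the MT-ND genes over that of these 6 genes was 0.612 ± 0.0375 in siCPT2 libraries and 0.591 ± 0.0275 in NC libraries (SD, n = 3 each). The difference in this ratio was smaller than the SD of either group.

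The nuclear subunits were higher in siCPT2 libraries 1 and 3, a different pair from the mitochondrial genes. Their median log2 difference from the NC mean was 0.45, -0.02 and 0.35 in siCPT2 libraries 1, 2 and 3, against 0.10, -0.21 and 0.12 in NC libraries 1, 2 and 3. Of the 37, 33, 18 and 34 were above their NC mean in siCPT2 libraries 1, 2 and 3, against 30, 2 and 32 in NC libraries 1, 2 and 3. NC library 2 was the lowest for this group of genes, and siCPT2 library 2 lay between it and the other NC libraries. With offsets for GC content and length the medians were smaller, at 0.12, -0.04 and 0.14 in siCPT2 libraries 1, 2 and 3, against 0.05, -0.11 and 0.07 in NC libraries 1, 2 and 3.

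**Figure D2:**
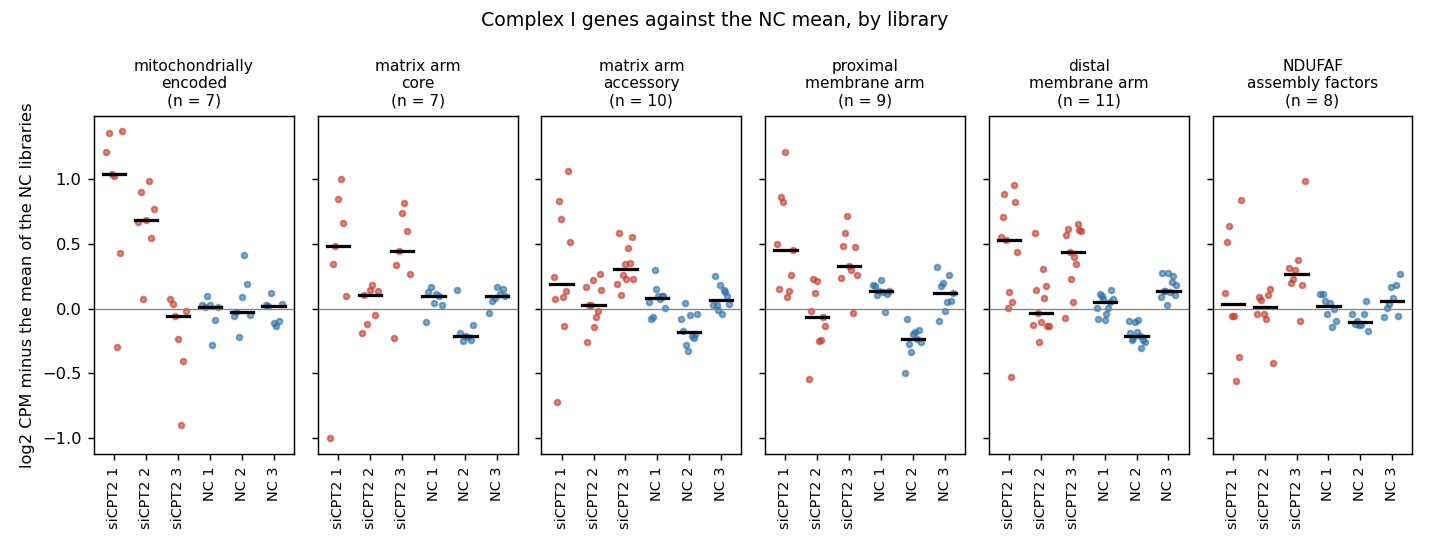
log2 CPM minus the mean of the NC libraries for each complex I gene, by structural group and library; each point is a gene, siCPT2 libraries are red and left of the NC libraries in blue, and bars are medians. The mitochondrially encoded genes are high in siCPT2 libraries 1 and 2, the nuclear subunits in siCPT2 libraries 1 and 3.

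Of the 37 nuclear subunits, 34 had a positive log2 fold change and 3 a negative one, with a median of 0.24. None passed over all genes (edgeR, smallest adjusted p = 0.338), where 2 of 15302 genes did. At an unadjusted p under 0.05, 9 subunits were higher and 0 were lower, against 9.18% higher and 5.29% lower of all genes tested. The groups did not overlap for 10 subunits: siCPT2 was higher for 9 of them and lower for NDUFS1. Of all genes tested, 12.2% did not overlap and were higher, and another 12.2% did not overlap and were lower. The authors' deposited table called 3 up (NDUFS6, NDUFS8 and NDUFB10) and 0 down, where 2.77% and 1.38% of genes with a p-value were called up and down. The count of 9 changed with single libraries: it was 2 without NC library 2, 4 without siCPT2 library 3, 5 without NC library 1 and 19 without siCPT2 library 2. The share of all genes at that p is not given for these refits. Their counts thus show how the number varies, and are no result about complex I genes.

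The core of the matrix arm holds the flavin and the iron-sulfur clusters, and 6 of its 7 genes had a positive log2 fold change (median 0.28). NDUFS8 (chr11:68030617-68036644, plus strand, GRCh38), which carries iron-sulfur clusters on the way to ubiquinone, had 153, 86.3 and 134 CPM in siCPT2 libraries 1, 2 and 3, against 82.3, 65.3 and 82.5 CPM in NC libraries 1, 2 and 3. Every siCPT2 library was above every NC library, and library 2 was the lowest of each group. The log2 fold change of NDUFS8 was 0.70 (SE 0.22; adjusted p = 0.338 by edgeR), the highest of the nuclear subunits. Per length, NDUFS8 was the highest of the core in siCPT2 libraries, at 144 ± 34.6 FPKM, but not in NC libraries, where it had 97.3 ± 11.3 FPKM and NDUFV1 had 104 ± 15.2 FPKM. NDUFS7 holds the last cluster before ubiquinone. It had 61.6, 37.8 and 57.0 CPM in siCPT2 libraries 1, 2 and 3, against 35.1, 29.5 and 38.4 CPM in NC libraries 1, 2 and 3, overlapping at siCPT2 library 2 (log2 fold change 0.60, SE 0.22; adjusted p = 0.338 by edgeR). NDUFV1, the flavin subunit that binds NADH, had 239, 146 and 229 CPM in siCPT2 libraries 1, 2 and 3, against 161, 127 and 168 CPM in NC libraries 1, 2 and 3 (log2 fold change 0.43, SE 0.21; adjusted p = 0.339 by edgeR). In NDUFV1 too, siCPT2 library 2 lay within the NC range. NDUFS3, a scaffold of the core, had a log2 fold change of 0.28 (SE 0.20), and NDUFV2, which carries an iron-sulfur cluster beside the flavin subunit, 0.17 (SE 0.14).

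NDUFS1 went the other way. It encodes the large subunit of the matrix arm that takes up electrons after the flavin, and lies at chr2:206114817-206159603 on the minus strand. It had 50.4, 88.6 and 86.3 CPM in siCPT2 libraries 1, 2 and 3, against 94.0, 112 and 98.9 CPM in NC libraries 1, 2 and 3. All siCPT2 values were below all NC values, with siCPT2 library 1 lowest by far, and the log2 fold change was -0.43 (SE 0.22; adjusted p = 0.342 by edgeR). Without siCPT2 library 1 it was -0.23, and with GC and length offsets it was -0.05 (SE 0.10). Its longest annotated transcript has 11819 bases, the longest of the nuclear subunits, at 42.1% GC, and its exons overlap those of EEF1B2 on the opposite strand, so that reads there are uncertain. Its deposited FPKM did not follow its counts: NC library 2 had 18.9 FPKM, against 8.67 and 8.73 FPKM in NC libraries 1 and 3.

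Among the 10 accessory subunits of the matrix arm, 9 had a positive log2 fold change (median 0.18), and for 4 the siCPT2 values all lay above the NC values, as they did for 12.2% of all genes tested. NDUFS6 (chr5:1801400-1816605, plus strand), a zinc-binding subunit added late in assembly, had 174, 99.95 and 122 CPM in siCPT2 libraries 1, 2 and 3, against 89.1, 72.7 and 88.9 CPM in NC libraries 1, 2 and 3. The groups did not overlap, and library 2 was again lowest in each (log2 fold change 0.66, SE 0.21; adjusted p = 0.338 by edgeR). NDUFV3, which sits beside the flavin subunit, had 78.2, 60.5 and 64.0 CPM in siCPT2 libraries 1, 2 and 3, against 54.9, 53.1 and 56.2 CPM in NC libraries 1, 2 and 3. NDUFA7 had 38.5, 27.7 and 30.3 CPM in siCPT2 libraries 1, 2 and 3, against 26.4, 19.0 and 27.0 CPM in NC libraries 1, 2 and 3. Neither gene's groups overlapped, at log2 fold changes of 0.30 (SE 0.15; adjusted p = 0.342 by edgeR) for NDUFV3 and 0.42 (SE 0.21; adjusted p = 0.341 by edgeR) for NDUFA7. NDUFAB1 is the mitochondrial acyl carrier protein, which also serves mitochondrial fatty acid synthesis and is bound in both arms. It had 35.6, 37.3 and 54.1 CPM in siCPT2 libraries 1, 2 and 3, against 41.1, 33.7 and 43.2 CPM in NC libraries 1, 2 and 3, and was high in siCPT2 library 3 only (log2 fold change 0.11, SE 0.21; adjusted p = 0.772 by edgeR). NDUFA9, near the ubiquinone site, was the lowest of this group per length, at 5.93 ± 0.876 FPKM in siCPT2 libraries and 6.01 ± 0.295 FPKM in NC libraries. The 5 accessory subunits of the matrix arm not named here had log2 fold changes of -0.15 to 0.39.

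The 9 accessory subunits of the proximal membrane arm, near the matrix arm, were positive in 8 cases, with a median log2 fold change of 0.21. NDUFA11, at the contact of complex I with complex III in supercomplexes, had 79.9, 51.5 and 65.9 CPM in siCPT2 libraries 1, 2 and 3, against 47.3, 36.3 and 49.5 CPM in NC libraries 1, 2 and 3. Its groups did not overlap (log2 fold change 0.57, SE 0.21; adjusted p = 0.338 by edgeR). NDUFA13, also known as GRIM-19, had 86.9, 53.3 and 80.9 CPM in siCPT2 libraries 1, 2 and 3, against 54.0, 38.8 and 56.4 CPM in NC libraries 1, 2 and 3. NDUFA3 had 25.1, 12.5 and 13.6 CPM in siCPT2 libraries 1, 2 and 3, against 12.6, 9.40 and 10.7 CPM in NC libraries 1, 2 and 3. In NDUFA13 and NDUFA3, siCPT2 library 2 lay within the NC range, and the log2 fold changes were 0.57 (SE 0.23) and 0.65 (SE 0.29), both with an adjusted p by edgeR of 0.338. NDUFA13 shares exon bases with YJEFN3 on its own strand and NDUFA3 with TFPT on the other, so part of their reads is uncertain. The same holds for other genes named in the text. NDUFA11 overlaps AC024592.3 and NDUFA7 overlaps AC010323.1 on the same strand, and NDUFB11 overlaps RBM10 and NDUFAF3 overlaps DALRD3 on the opposite strand. On their own strand, NDUFA9 overlaps AC005832.4 and AC005833.1, and NDUFS3 overlaps PTPMT1. Of the nuclear subunits, 20 overlap no other gene of the table. NDUFS5 had the highest level per length of all nuclear subunits, at 220.5 ± 33.3 FPKM in siCPT2 libraries and 210.4 ± 29.1 FPKM in NC libraries. NDUFA10 had the lowest mean level, at 5.41 ± 1.48 FPKM in siCPT2 libraries and 5.21 ± 0.445 FPKM in NC libraries. By library, NDUFS1 was lower than NDUFA10 in siCPT2 library 1 and NDUFA9 was lower in siCPT2 library 3. The log2 fold changes from counts were 0.20 (SE 0.19) for NDUFS5 and 0.21 (SE 0.19) for NDUFA10. The nuclear subunits lowest per length, NDUFA10, NDUFA9 and NDUFS1, have longest annotated transcripts of 4915, 8363 and 11819 bases, and which lengths the FPKM used is not given. The 4 proximal subunits not named here ranged from -0.06 to 0.24.

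All 11 accessory subunits of the distal membrane arm, around the outer pumps, had a positive log2 fold change (median 0.32). NDUFB10 (chr16:1959508-1961975, plus strand) belongs to the subunits on the intermembrane side that are held by disulfide bonds. It had 74.9, 68.8 and 67.8 CPM in siCPT2 libraries 1, 2 and 3, against 43.2, 40.1 and 55.4 CPM in NC libraries 1, 2 and 3. NDUFB10 was nearly even in the siCPT2 libraries, all above the NC libraries. NDUFV2 of the matrix arm was also nearly even there, at 72.3, 74.1 and 81.5 CPM in siCPT2 libraries 1, 2 and 3. Its siCPT2 values too were all above the NC values, siCPT2 library 1 by a very small margin. The log2 fold change of NDUFB10 was 0.61 (SE 0.17), with the smallest unadjusted p of all complex I genes (0.00572; adjusted p = 0.338 by edgeR). NDUFB11, encoded on the X chromosome, had 233, 139 and 192 CPM in siCPT2 libraries 1, 2 and 3, against 135, 106 and 138 CPM in NC libraries 1, 2 and 3, a separation that at siCPT2 library 2 was very small. NDUFB7 had 58.4, 34.0 and 47.3 CPM in siCPT2 libraries 1, 2 and 3, against 31.2, 24.4 and 35.9 CPM in NC libraries 1, 2 and 3, with an overlap at siCPT2 library 2. The log2 fold changes were 0.57 (SE 0.21) for NDUFB11 and 0.61 (SE 0.24) for NDUFB7, each with an adjusted p by edgeR of 0.338. NDUFB6 had the lowest mean level per length of the distal subunits, at 17.3 ± 3.56 FPKM in siCPT2 libraries and 17.4 ± 2.60 FPKM in NC libraries. Its rank was not resolved by library. NDUFB5 was lower in siCPT2 library 1 and NC library 1, and NDUFB1 in siCPT2 libraries 2 and 3 and NC library 3. The 7 distal subunits not named here had log2 fold changes of 0.00 to 0.48.

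**Figure D3:**
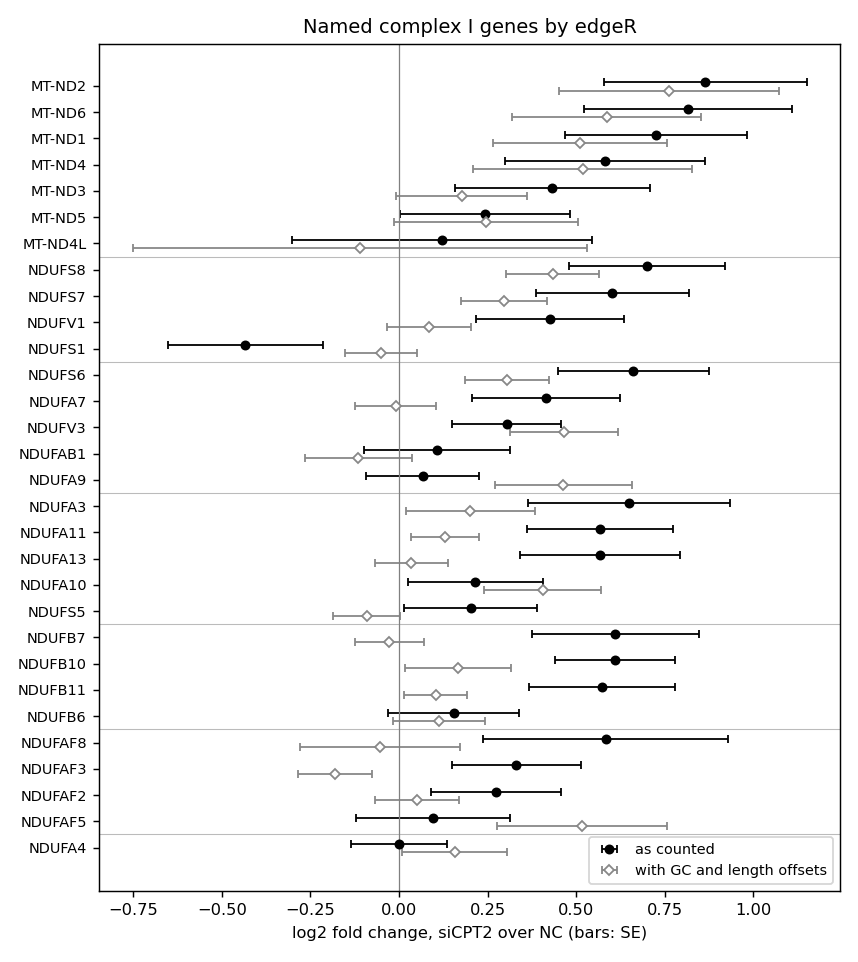
edgeR log2 fold changes, siCPT2 over NC, of the tested MT-ND and NDUF genes chosen by the naming rule, with bars of 1 SE; black circles are from the counts and grey diamonds from the fit with offsets for GC content and length. Genes named outside the rule are not shown. Grey lines part the structural groups from top to bottom: mitochondrially encoded, matrix arm core and accessory, proximal and distal membrane arm, NDUFAF, NDUFA4. Most nuclear subunits move towards 0 with the offsets, as does NDUFS1 from below.

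The NDUFAF assembly factors, proteins that help to build the complex but are not part of it, were nearest to all genes. Their median log2 difference from the NC mean was 0.03, 0.01 and 0.26 in siCPT2 libraries 1, 2 and 3, against 0.02, -0.10 and 0.06 in NC libraries 1, 2 and 3. Of the 8, 7 had a positive log2 fold change (median 0.12), 0 had an unadjusted p under 0.05, and 1, NDUFAF3, had groups that did not overlap. Of all genes tested, 9.18% were higher at that p and 12.2% did not overlap and were higher, so these counts are near the background. NDUFAF3, which acts on the module that binds ubiquinone, had 68.2, 46.0 and 51.5 CPM in siCPT2 libraries 1, 2 and 3, against 45.7, 41.1 and 44.9 CPM in NC libraries 1, 2 and 3 (log2 fold change 0.33, SE 0.18; adjusted p = 0.358 by edgeR). NDUFAF8, the partner of NDUFAF5, had 12.4, 5.13 and 13.8 CPM in siCPT2 libraries 1, 2 and 3, against 6.46, 6.12 and 8.36 CPM in NC libraries 1, 2 and 3. siCPT2 library 2 was the lowest of all 6 for NDUFAF8, whose log2 fold change was 0.58 (SE 0.35; adjusted p = 0.374 by edgeR). NDUFAF2, which stands in for a late subunit of the matrix arm during assembly, had 28.3, 21.0 and 22.7 CPM in siCPT2 libraries 1, 2 and 3, against 21.4, 18.3 and 19.9 CPM in NC libraries 1, 2 and 3 (log2 fold change 0.27, SE 0.18; adjusted p = 0.411 by edgeR). NDUFAF2 was also the highest of the 8 per length, at 30.4 ± 2.42 FPKM in siCPT2 libraries and 27.7 ± 1.67 FPKM in NC libraries. NDUFAF5, an enzyme that modifies NDUFS7, was the lowest, at 1.44 ± 0.391 FPKM in siCPT2 libraries and 1.498 ± 0.164 FPKM in NC libraries. The 4 assembly factors NDUFAF1, NDUFAF4, NDUFAF6 and NDUFAF7 had log2 fold changes of -0.16 to 0.14.

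A further 15 known assembly factors without an NDUF name were 11 higher and 4 lower, with a median log2 fold change of 0.18. DMAC2, for the distal membrane arm, had 37.8, 33.2 and 36.0 CPM in siCPT2 libraries 1, 2 and 3, against 26.3, 28.1 and 26.8 CPM in NC libraries 1, 2 and 3. Its groups did not overlap and its log2 fold change was 0.40 (SE 0.15; adjusted p = 0.338 by edgeR). ACAD9, an assembly factor related to the dehydrogenases of beta-oxidation, had 155, 109 and 118 CPM in siCPT2 libraries 1, 2 and 3, against 109, 93.1 and 96.4 CPM in NC libraries 1, 2 and 3 (log2 fold change 0.35, SE 0.17; adjusted p = 0.338 by edgeR). For ECSIT, which acts with ACAD9, the log2 fold change was 0.46 (SE 0.25; adjusted p = 0.357 by edgeR).

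The values of the nuclear subunits went with the GC content of their transcripts. The 17 subunits with at least 50% GC in their longest transcript had a median of 0.57 on the log2 fold change scale and held all 9 with an unadjusted p under 0.05, which is 52.9% of them, against 18.7% of all genes in that GC range. The 20 subunits under 50% GC had a median of 0.16 and held 0, against 1.41% of all genes there. All genes tested had the same trend: 6233 genes with at least 50% GC had a median of 0.27, and 6974 genes below had a median of -0.25. Ranked over the 37 subunits, GC content and log2 fold change had a Spearman correlation of 0.77, or of 0.65 when siCPT2 library 1 was left out. Over all 13207 genes with a GC value it was 0.68, and 0.49 without that library. These correlations are across genes that share the same 6 libraries, and are given as a description.

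**Figure D4:**
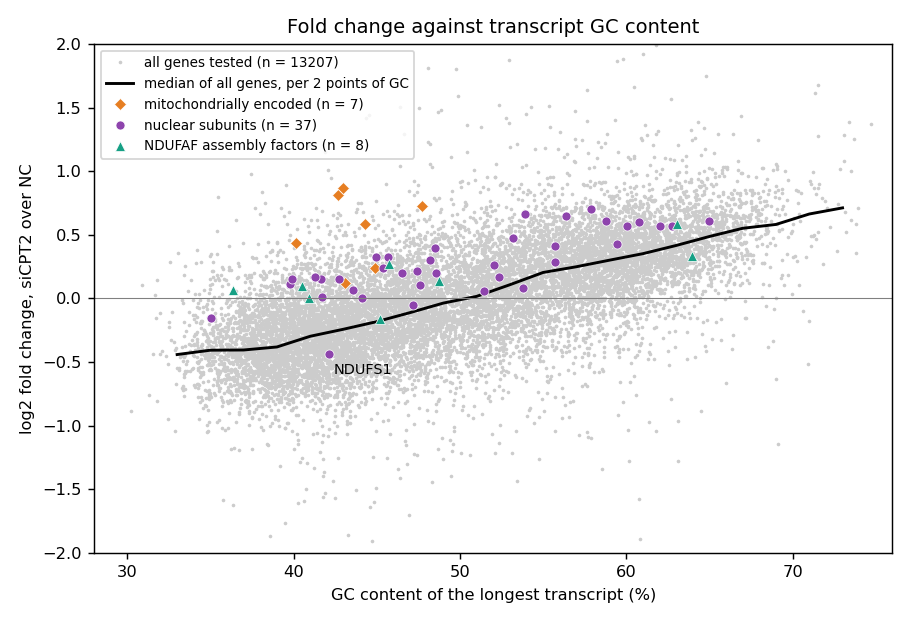
edgeR log2 fold change, siCPT2 over NC, against the GC content of the longest transcript; grey points are all 13207 genes with a GC value, the line is their median per 2 percentage points, and coloured symbols are complex I genes. The nuclear subunits follow the slope of the line and mostly lie above it, both below 50% GC and over it, while NDUFS1 lies below the line. The mitochondrially encoded genes lie above it.

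With offsets for GC content and length in the fit, 24 nuclear subunits were positive and 13 negative, around a median log2 fold change of 0.10, where 49% of all genes were positive. With an unadjusted p under 0.05, 8 were higher and 1 was lower, against 7.25% higher and 5.88% lower of all genes in that fit. Of the 9 higher without offsets, only NDUFS6, NDUFS7 and NDUFS8 were among these 8. NDUFV3, NDUFA9 and NDUFA10 were among the genes that came in. Of those that dropped out, NDUFA11 had 0.13 (SE 0.096) and NDUFB11 0.10 (SE 0.090). NDUFS8 kept 0.43 (SE 0.13) and NDUFS6 0.30 (SE 0.12), while NDUFB10 had 0.17 (SE 0.15) and NDUFB7 -0.03 (SE 0.10). The mitochondrially encoded genes, at 40.2% to 47.7% GC, had a median of 0.51 with the offsets and the assembly factors 0.02. Under the offsets NDUFV3 and NDUFA9 had higher values than without, 0.47 (SE 0.15) and 0.46 (SE 0.19). The offsets took each gene's longest annotated transcript, of 4676 bases for NDUFV3, 8363 for NDUFA9 and 4915 for NDUFA10. In these genes it is also the transcript annotated as principal. For NDUFS8 and NDUFS7 the longest has 3072 and 3743 bases, but the principal 791 and 1039. How far the values with offsets depend on this choice of transcript was not tested. No complex I gene passed over all genes in the fit with offsets either.

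The genomes parted within single libraries. The summed CPM of the 7 MT-ND genes was 75547, 60654 and 32743 in siCPT2 libraries 1, 2 and 3, against 36796, 38649 and 35313 in NC libraries 1, 2 and 3. The summed CPM of the 37 nuclear subunits was 2836, 2063 and 2731 in siCPT2 libraries 1, 2 and 3, against 2155, 1789 and 2201 in NC libraries 1, 2 and 3. siCPT2 library 1 was high for both genomes, siCPT2 library 2 for the mitochondrial genes alone and siCPT2 library 3 for the nuclear genes alone. The ratio of the sums, which compares libraries and not genes, was 26.6, 29.4 and 12.0 in siCPT2 libraries 1, 2 and 3, against 17.1, 21.6 and 16.04 in NC libraries 1, 2 and 3. As group means the ratio was 22.7 ± 9.36 in siCPT2 libraries and 18.2 ± 2.96 in NC libraries (SD, n = 3 each), a difference smaller than the spread among the siCPT2 libraries.

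**Figure D5:**
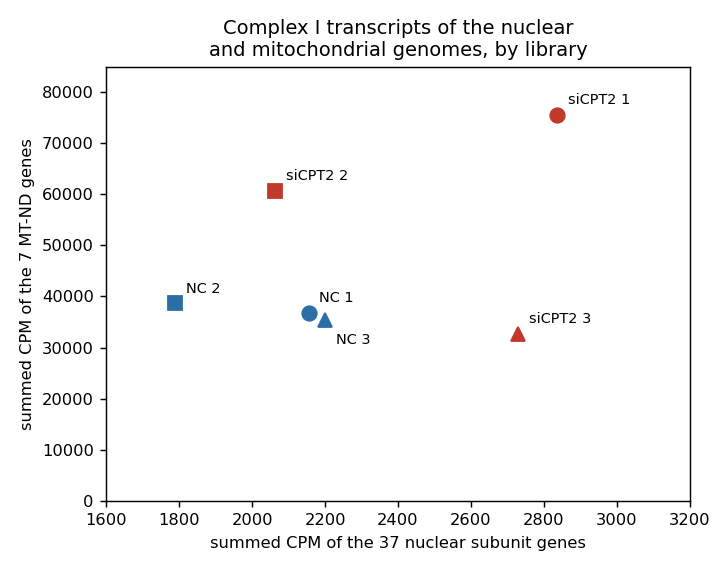
Summed CPM of the 7 MT-ND genes (vertical axis, from 0) against that of the 37 nuclear subunit genes (horizontal axis, not from 0), one point per library; siCPT2 is red, NC is blue and the symbol gives the replicate. siCPT2 library 1 lies at the upper right, siCPT2 library 2 high at 2063 nuclear CPM, and siCPT2 library 3 low at 2731.

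Other measures moved with these libraries, and their part in the results was not tested. The median log2 difference from the NC mean of 10 transcripts that are retained in the nucleus or keep introns was -0.91, -0.10 and -0.31 in siCPT2 libraries 1, 2 and 3, against -0.10, 0.21 and -0.09 in NC libraries 1, 2 and 3. It was lowest in siCPT2 libraries 1 and 3, the libraries in which the nuclear subunits were highest. The 10 epithelial markers summed to 1716 to 2659 CPM in siCPT2 libraries and 1552 to 1811 CPM in NC libraries, nearly all of it KRT8 and KRT18. The 10 fibroblast and endothelial markers summed to 149.8 to 185 CPM in siCPT2 libraries and 149.8 to 154 CPM in NC libraries, mostly COL1A1 and CDH5, with LUM at 0 throughout. The 10 leukocyte markers summed to 29.96 to 31.99 CPM in siCPT2 libraries and 21.6 to 23.2 CPM in NC libraries, nearly all of it the lysosomal gene CD68, with CD3D, MS4A1 and LYZ at 0 in every library.

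NRF1, a transcription factor for nuclear genes of the respiratory chain, is known to bind the promoters of many of them. The 250 bases before the start were available from RefSeq for 39 of the 45 nuclear subunits and assembly factors, 32 of them subunits. The core GCGCATGC of the NRF1 motif was searched on both strands, as written and as GCATGCGC. It was found before 4 of the 32 subunits (12.5%), NDUFA6, NDUFB4, NDUFS6 and NDUFS7, and before 0 of 7 assembly factors, against 4.91% of 10295 tested genes with such a window. NDUFS6 and NDUFS7 are among the 9 subunits with an unadjusted p under 0.05. For each, 120 of the 250 bases before the RefSeq start are shown, chosen to hold the core, which is in capitals. They read 5′ to 3′ on the plus strand, at chr5:1801287-1801406 and chr19:1383778-1383897 (GRCh38.p14). The core begins 46 bases before the start in NDUFS6 and 73 bases before it in NDUFS7. The NDUFS7 stretch lies inside the gene as GENCODE 29 draws it (chr19:1383527-1395589).
NDUFS6: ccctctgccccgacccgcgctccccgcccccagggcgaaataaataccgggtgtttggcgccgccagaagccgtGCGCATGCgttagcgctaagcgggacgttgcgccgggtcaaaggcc
NDUFS7: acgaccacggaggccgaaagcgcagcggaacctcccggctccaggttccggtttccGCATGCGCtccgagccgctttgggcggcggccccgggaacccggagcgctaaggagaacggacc
The log2 fold changes of NDUFA6 and NDUFB4, the other pair with the core, were 0.39 (SE 0.24) and 0.01 (SE 0.17), so that the 4 genes with the core spanned 0.01 to 0.66. The ETS core CCGGAAG, also searched on both strands, was found before 5 of 32 subunits (15.6%), against 15.7% of tested genes. The ERR core AAGGTCA was found before 3 (9.38%), NDUFA5, NDUFB4 and NDUFS7, against 2.24%, and the YY1 core AAGATGGC before 0, against 1.77%. A match of letters is a description and shows no binding.

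Of the genes with an NDUF name that are not complex I subunits, NDUFA4, now assigned to complex IV, had 109, 102 and 119.7 CPM in siCPT2 libraries 1, 2 and 3, against 114, 104 and 113 CPM in NC libraries 1, 2 and 3. The groups overlapped fully, with a log2 fold change of 0.00 (SE 0.14; adjusted p = 0.997 by edgeR). NDUFA4L2, its paralog known to be induced by hypoxia, had 7, 0 and 0 counts in siCPT2 libraries 1, 2 and 3, against 3, 0 and 0 counts in NC libraries 1, 2 and 3, and was not tested. NDUFC2-KCTD14, a readthrough of neighbouring genes that shares exons with NDUFC2, had no count in any library.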

How the data were processed

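Per the labels' protocols, poly(A) RNA of 6 libraries was fragmented and copied with random hexamers, with no strand marking named. For each gene, the authors deposited raw read counts, FPKM values, and the p-value, log2 fold change and call of their own comparison, per the file headers. The gene models and library sizes behind the FPKM, the handling of strand and of reads with several matches are not given in the sources used here. The submitters' processing notes name the build GRCh38 and HISAT2, TopHat2, Bowtie2, StringTie, DESeq2 and edgeR, but neither version nor role.

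Of 24154 genes (17 stray lines were left out), 19974 had an Ensembl ID, and all of these matched GENCODE 29, from which coordinates, GC content and length of the longest transcript were taken. The count test was that of edgeR 4.0.16 in R 4.3.3 (filterByExpr, TMM, quasi-likelihood F-test with robust dispersion), adjusted by Benjamini-Hochberg over 15302 genes at 0.05. CPM are on TMM-scaled library sizes, log2 CPM by library used a prior count of 2, and log2 fold changes are siCPT2 over NC. Offsets came from a loess (span 0.3) of each library on GC content and length over 13207 genes. Alternatives also used DESeq2 1.42.0 and limma 3.58.1. The fits were tested on simulated data. With 3 libraries a group, an exact 2-sided permutation test of a single gene cannot go below 0.1.

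The members, gene lists, structural groups and alternatives were chosen with earlier results of these data known. Genes were named by a rule: all MT-ND genes, genes called by edgeR, DESeq2 or the authors, the 3 smallest p-values and the highest and lowest FPKM of each structural group, NDUFAB1, the 3 genes that are not subunits, and the 3 smallest p-values of the other assembly factors. NDUFA5, NDUFA6 and NDUFB4 were named for a promoter match, after their values were seen. NDUFS3 and NDUFV2 were also named outside the rule, after their values were seen. NDUFAF1, NDUFAF4, NDUFAF6 and NDUFAF7 are named with a shared range only.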

Additional observations from a re-analysis of the deposited data

How the results depend on the processing

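Over the 21 alternatives, 17 of the 33 tested genes named by the rule kept their direction in every fit. The number of genes called, 2, was 17 with DESeq2, 1 with limma-voom, 0 with limma-trend on log2(FPKM + 1) or log2(FPKM + 0.1), and 4 with GC and length offsets without siCPT2 library 1. Leaving out single libraries gave 1 (NC library 1 or 3) to 5 (siCPT2 library 2). The count of 9 nuclear subunits with an unadjusted p under 0.05 was 3 with library size alone, 4 with either FPKM scale, 4 with offsets without siCPT2 library 1, and 2 to 19 when single libraries were left out. The share of all genes at that p is not given for these fits, so these counts have no background beside them. The mitochondrially encoded median was 0.18 with offsets without siCPT2 library 1, and 0.30 (without siCPT2 library 1) to 0.86 (without siCPT2 library 3). The nuclear median was 0.17 to 0.34 when single libraries were left out, 0.10 with library size alone, 0.10 with offsets and 0.047 with offsets without siCPT2 library 1. The assembly factor median was -0.017 with library size alone, which moves the median of all genes to -0.13, -0.043 with log2(FPKM + 1), -0.052 with log2(FPKM + 0.1) and -0.0082 with offsets without siCPT2 library 1. Without single libraries it was -0.0073 (without siCPT2 library 3) to 0.19. Alternatives chosen after seeing the data gave a nuclear median of 0.21 over the 20 subunits that overlap no other gene of the table, and a mitochondrial median of 0.73 without MT-ND3 and MT-ND4L.

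Where a sign turned, the value was close to 0 in most cases and the cause was not tested. With offsets the log2 fold change was -0.11 for MT-ND4L, -0.0093 for NDUFA7, -0.091 for NDUFS5, -0.027 for NDUFB7, -0.18 for NDUFAF3, -0.054 for NDUFAF8, -0.11 for NDUFAB1, 0.16 for NDUFA4 and -0.032 for ECSIT. With offsets but without siCPT2 library 1 it was -0.10 for MT-ND3, 0.013 for NDUFS1, -0.0078 for NDUFA3, -0.12 for NDUFS5, -0.17 for NDUFAF3, -0.018 for NDUFAF8, -0.036 for NDUFAF2 and -0.10 for ECSIT. MT-ND4L had -0.069 with limma-voom, -0.0063 with library size alone and -0.20 with either FPKM scale. Library size alone gave -0.070 for NDUFA9, -0.036 for NDUFAF5 and -0.022 for NDUFAB1. On log2(FPKM + 1) and log2(FPKM + 0.1), NDUFA9 had -0.025 and -0.030, NDUFB6 -0.022 and -0.024, NDUFAF5 -0.048 and -0.087, and NDUFAB1 -0.039 and -0.040. NDUFA4 had 0.0092 with upper-quartile factors and 0.0056 with Ensembl genes alone. Without single libraries the value ran from -0.0068 to 0.63 for MT-ND3, -0.60 to 0.45 for MT-ND4L, -0.064 to 0.046 for NDUFA4, -0.021 to 0.16 for NDUFA9, -0.070 to 0.17 for NDUFAF5 and -0.11 to 0.21 for NDUFAB1.

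The groups share replicate numbers. Deviations of the libraries with the same number from their group means correlated at 0.25, 0.36 and 0.01 for numbers 1, 2 and 3. Crossed, siCPT2 library 1 with NC library 2 gave -0.32, and siCPT2 library 2 with NC library 1 gave -0.28. Deviations from a group mean cancel out within the group, so the crossed values are tied to the same-number values and add no separate support. By the same-number values, numbers 1 and 2 went together across the groups and number 3 did not. NC library 3 correlated best with siCPT2 library 1 (0.09). Whether the numbers mark pairs or a shared batch was not tested. With the replicate number as a block, edgeR called 633 genes, 5 of them complex I genes (NDUFS6, NDUFS8, NDUFA13, NDUFB10 and NDUFB11), and 632 genes with offsets as well. Those 632 also held 5 complex I genes, but of the genes just named only NDUFS8 was among them, beside NDUFV3 and NDUFA9. The block gave -0.068 for MT-ND4L. Block and offsets together gave -0.33 for MT-ND4L, -0.012 for NDUFA7, -0.092 for NDUFS5, -0.029 for NDUFB7, -0.18 for NDUFAF3, -0.090 for NDUFAF8, -0.13 for NDUFAB1, 0.14 for NDUFA4 and -0.031 for ECSIT.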
